A study of Drosophila melanogaster with 159 samples.

Results

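The genes soti, vrs, orb2 and Hsp60B of the fruit fly Drosophila melanogaster, which belong to the differentiation of spermatids into sperm, were followed through the life cycle on cDNA arrays, each of which carried 1 sample beside a reference RNA common to all. The probes annotated to 1 of these genes alone were read: 7 of the 12588 probes, or 4 of the 3045 genes that have such a probe. One probe reads soti (probe 5121, with a value on 154 arrays) and 1 reads vrs (probe 1830, 155 arrays). The 3 probes of orb2 are probe 4204 (157 arrays), probe 6243 (156 arrays) and probe 9532 (149 arrays). Probes 6243 and 9532 take the name orb2 from the platform annotation, under a gene identifier that the reference gene table does not list. Hsp60B has probe 2396 (156 arrays) and probe 2397, which gave a value on 11 arrays and had too few for any of the comparisons over both slide sets.

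In the fly testis, spermatocytes grow, pass through meiosis and become cysts of joined spermatids, which elongate and are then separated and stripped of their cytoplasm in a step called individualisation. Most transcripts that spermatids use are made before meiosis and stored, and only a small class of genes is transcribed afterwards. soti belongs to that class and encodes an inhibitor of a Cullin-3 ubiquitin ligase, through which caspases are switched on during individualisation. Hsp60B encodes a testis relative of the mitochondrial chaperonin Hsp60 and is needed for individualisation. orb2 encodes a cytoplasmic polyadenylation element binding protein, which controls the translation of stored messenger RNAs in male germ cells and also acts in neurons in long-term memory.

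Apart from flies titled tudor, described below, the animals were Canton S, the wild-type strain of the study, kept at 25 °C. Embryos came as 30 collections of 1 h, overlapping up to 6-7 h and end to end after that (60 arrays), larvae at 10 times from 24 h after hatching to the time titled Larvae_105h, called the oldest larvae below (20 arrays), with males and females taken apart at that last time (4 arrays), animals in metamorphosis at 18 times from 0 to 96 h after the white prepupa (35 arrays), and adults of either sex at 8 ages from 0-24 h to 30 d after eclosion (32 arrays), from a population in which both sexes lived together. A further 8 arrays carried adults of 0-24 h or 5 d of either sex whose titles say tudor, the gene needed to assemble germ plasm and so to form germ cells. Whether the flies themselves or only their mothers lacked it is not in the titles, and the growth protocol given for them is that of Canton S. Whole animals were used, in which fewer cells of a type and less RNA per cell cannot be told apart. Each group held 2 arrays, except 1 at 0 h of metamorphosis, and nothing states that they were separate collections, so the p-values measure the spread between arrays, which may be technical.

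Values are log2 ratios of sample to reference, centred on the median of the array, so that 0 is the ratio of a typical probe, and a difference of 1 is 2-fold. Each array gave 6722 to 8546 values. In 13 arrays a scan comment puts the sample in the red channel of a red over green ratio, and for the others that direction is likely. Scan comments of 7 arrays disagree with the title in age or slide, the replicate 1 arrays of male and of female larvae among them (their comments say 96 h). A set of 5 arrays resembled few others (fifth-best correlation with arrays of other groups at most 0.485, against at least 0.508 on all other arrays): embryo 2-3 h and 4-5 h and metamorphosis 12, 16 and 80 h, all replicate 1. The slides come from 2 numbered sets, called A (57 arrays) and B (102 arrays), and each model held a term for it. Tests are limma's moderated tests, two-sided, with Benjamini-Hochberg adjustment over all probes tested and a threshold of 0.05.

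**Figure D1:**
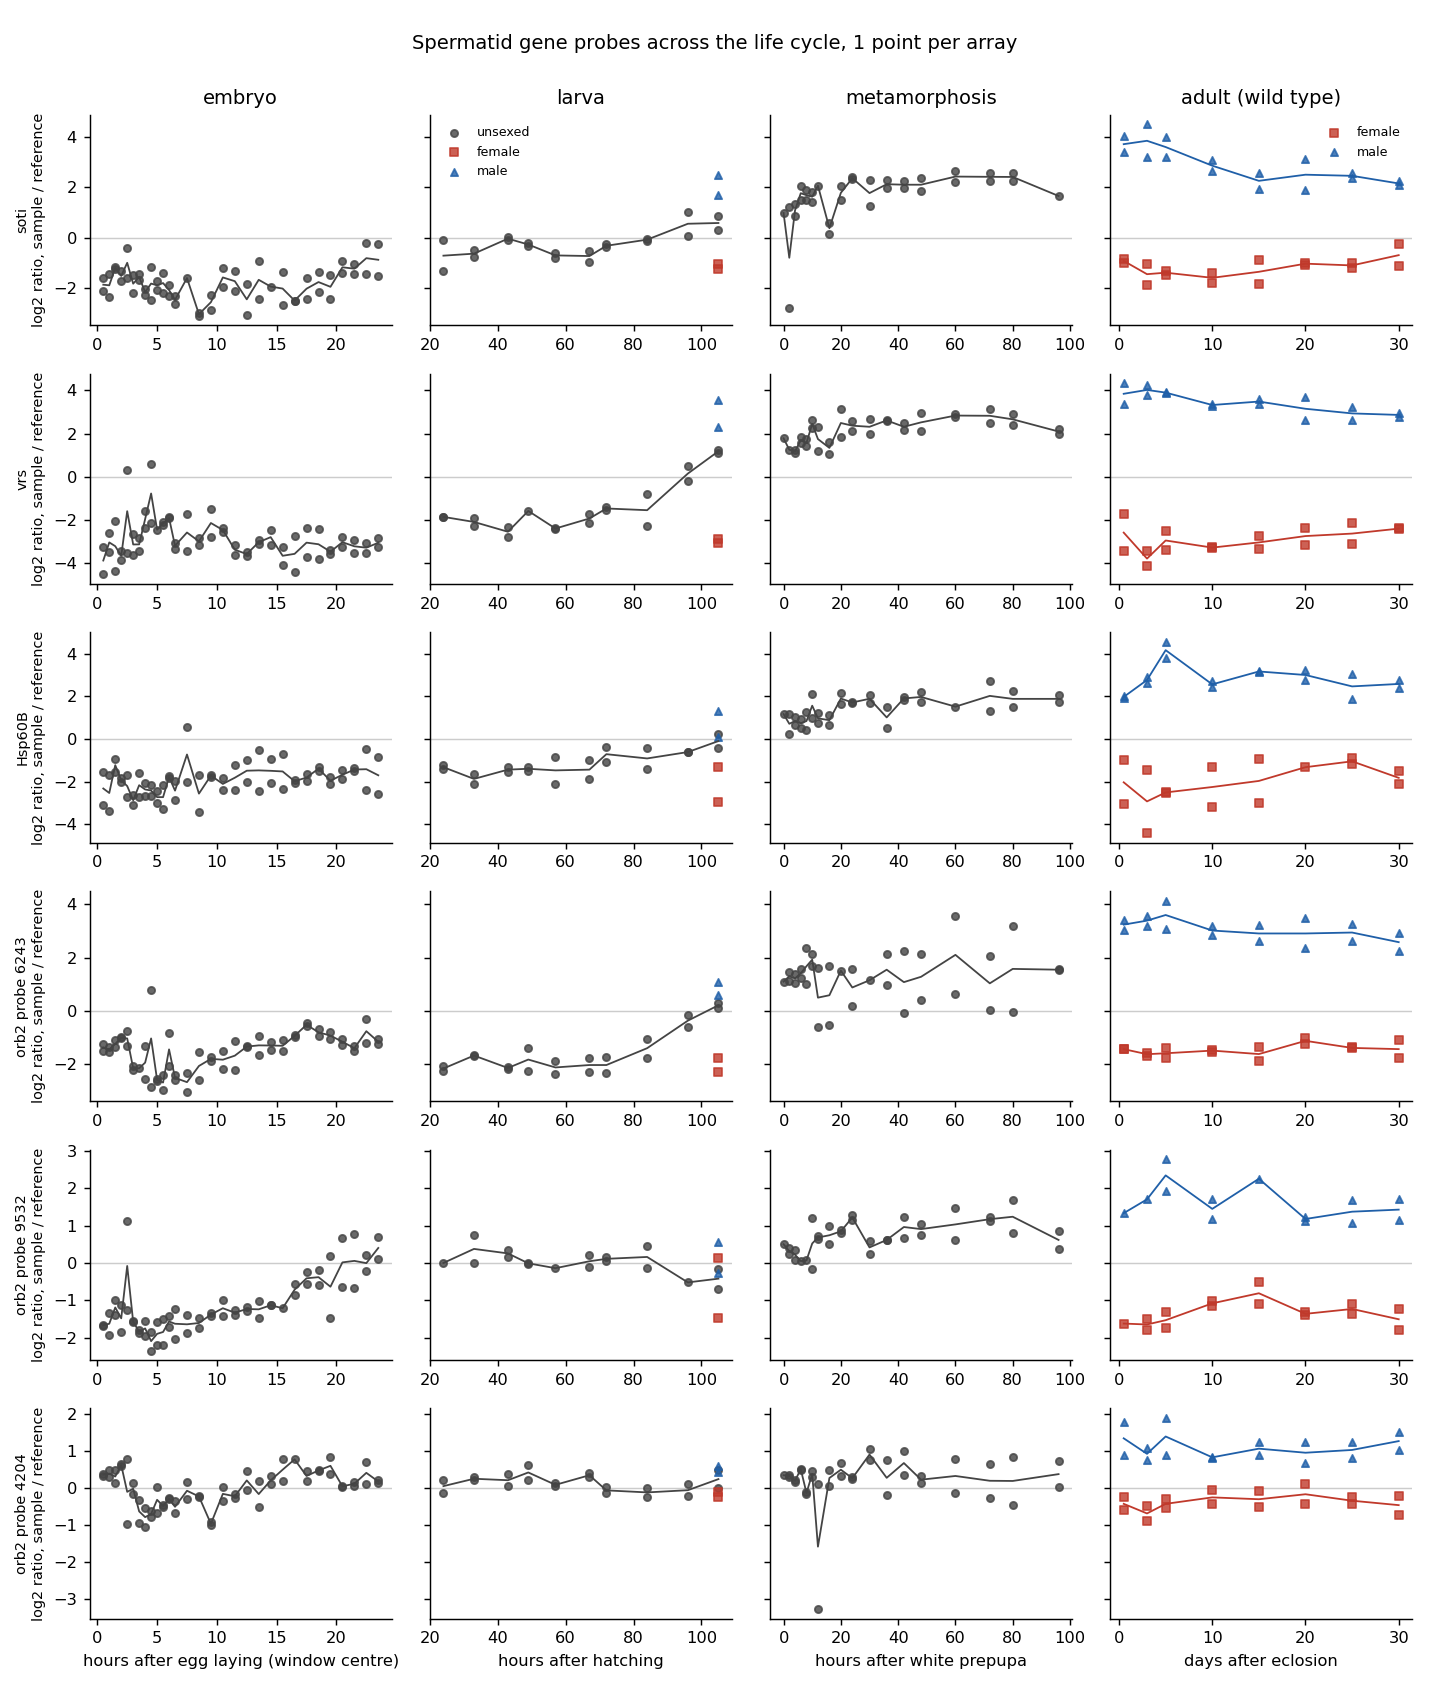
Log2 ratio of sample to reference (vertical axis) for the 6 tested probes on each array of the wild type, against hours in embryos, larvae and metamorphosis and days in adults (horizontal axes). Points are arrays and lines join means of a time point. The probes of soti, vrs, Hsp60B and orb2 probe 6243 lie low in embryos and young larvae, climb late in larval life, and part by sex in the oldest larvae and in adults.

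The first question was when the genes come on in larvae. Of the 6 tested probes 4, those of soti, vrs and Hsp60B and orb2 probe 6243, were higher in unsexed larvae of 84 h or older than in larvae of 24 to 43 h, where 13.9% of all tested probes were. For vrs the 6 young arrays ran from -2.79 to -1.85 (median -2.10) and the 6 older ones from -2.30 to 1.24 (median 0.14). The groups overlap through the 84 h replicate 1 array alone (-2.30), the other older arrays lying above every young one. The difference was 2.09 ± 0.45 (SE), or 4.27-fold (adjusted p = 0.00391). orb2 probe 6243 was higher by 1.47 ± 0.29 (adjusted p = 0.00239) and Hsp60B by 1.01 ± 0.22 (adjusted p = 0.00381).

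Within the older larvae the climb was spread over the 3 times. The vrs arrays read -2.30 and -0.81 at 84 h, -0.19 and 0.48 at 96 h, and 1.12 and 1.24 in the oldest, with no overlap between the times. orb2 probe 6243 read -1.74 and -1.04, then -0.58 and -0.14, then 0.12 and 0.31, again without overlap. Hsp60B read -1.40 and -0.42, -0.63 and -0.59, and 0.24 and -0.43, and the pairs of neighbouring times do not separate beyond their spread. soti had the smallest passing change (0.82 ± 0.27, adjusted p = 0.0344), from -1.34 to 0.02 (median -0.31) in young larvae to -0.12 to 1.02 (median 0.20) in older ones, with overlap. That call was lost when any 1 of 5 arrays was left out (24 h replicate 2, 33 h replicate 1 or 2, 96 h replicate 2 or the oldest larvae's replicate 2, adjusted p from 0.058 to 0.0807), and without centring (adjusted p = 0.116).

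orb2 probe 4204 (-0.15 ± 0.16, adjusted p = 0.527) and probe 9532 (-0.46 ± 0.24, adjusted p = 0.164) did not pass. Probe 9532 was lower in set B alone (-0.69, adjusted p = 0.0453), without 33 h replicate 1 (-0.69, adjusted p = 0.0479) and without 84 h replicate 1 (-0.69, adjusted p = 0.0327). On slide set A alone, which holds 2 of the older and 2 of the young larval arrays, none of the 5 probes tested passed: vrs was at 0.84 and soti at 0.32. Set B alone gave 2.72 for vrs and 1.86 for orb2 probe 6243. Of the 7 tested genes of the sperm tail and axoneme, 4 rose over the same interval (median of the 7, 0.62, against -0.02 over all tested probes), among them Theg (1.75 ± 0.26) and the axonemal tektin gene Tektin-A (0.96 ± 0.16). Of the 4 other genes of translational control in male germ cells, 3 rose, with eIF4E3, a testis form of the cap-binding factor eIF4E, at 1.72 ± 0.19. All 4 tested neuron markers were lower in the older larvae (median -1.02), among them slo (-2.64 ± 0.23) and nSyb (-1.13 ± 0.20). Of 5 female germline genes 2 were higher, exu (1.92 ± 0.29) and bcd (0.77 ± 0.17). The part of these tissues in the members' values was not tested.

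The oldest larvae were then compared by sex. The probes of vrs, soti and Hsp60B and orb2 probe 6243, or 4 of 6, were higher in males, where 3.57% of all 6609 tested probes were. vrs read 3.54 and 2.29 in the male arrays and -2.89 and -3.07 in the female arrays. Both male arrays stand above the unsexed arrays of that age and both female arrays below every unsexed larval array. The difference was 5.90 ± 0.39, or 59.5-fold (adjusted p = 2.02e-07).

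soti read 2.49 and 1.68 in males and -1.25 and -1.04 in females, a difference of 3.23 ± 0.37 (9.37-fold, adjusted p = 2.26e-05). orb2 probe 6243 read 1.10 and 0.61 in males and -1.76 and -2.27 in females (2.87 ± 0.34, adjusted p = 2.68e-05). In neither did the sexes overlap, and each male array lay above each unsexed array of that age. Hsp60B read 0.11 and 1.30 in males and -1.29 and -2.94 in females (2.82 ± 0.47, adjusted p = 0.00093). Its arrays do not overlap by sex either, but the male array at 0.11 lies below an unsexed one (0.24) and the female arrays are far apart. The Hsp60B call rests on a spread estimated from all 24 larval arrays: it was lost in the set B arrays alone (adjusted p = 0.0718) and in the 4 sexed arrays alone (adjusted p = 0.162).

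orb2 probe 4204 read 0.60 and 0.44 in males and -0.11 and -0.24 in females, without overlap, and did not pass (0.69 ± 0.23, adjusted p = 0.163). Same-numbered male and female arrays share a slide and deviated together (r = 0.71 across probes). When the slide entered as a random block, 447 probes passed in place of 240, and orb2 probe 4204 then passed (adjusted p = 0.0119). orb2 probe 9532 overlapped between the sexes, with 0.55 and -0.26 in males and 0.14 and -1.48 in females (0.81 ± 0.45, adjusted p = 0.694).

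Beside the members, 5 of the 7 sperm tail and axoneme genes were higher in male larvae (median 1.86, against -0.08 over all tested probes), with Theg at 3.73 ± 0.32, hmw at 2.14 ± 0.31, Tektin-A at 2.01 ± 0.29, the testis phosphoglycerate mutase gene Pglym87 at 1.86 ± 0.33 and the dynein light chain gene Cdlc2 at 1.57 ± 0.38. Of the 4 other genes of translational control in male germ cells 1 was higher, eIF4E3, by 3.51 ± 0.30 (adjusted p = 2.42e-06), and the median of the 4 was 0.32. The other post-meiotically transcribed gene with a probe, r-cup, did not pass (0.52 ± 0.34, adjusted p = 0.792). Neither did the paralogs Hsp60A (-0.56 ± 0.33) and orb (-0.13 ± 0.31), the latter the germline CPEB gene used in oogenesis. The accessory gland gene Acp36DE read between -3.46 and -3.04 in all 4 arrays. None of 4 tested neuron markers passed, and the mean of the 5 neuron markers lay between -1.07 and -0.95 on these arrays in both sexes. Of 5 female germline genes 1 was higher in males and 0 were lower (median of the 5, -0.02). Their mean was -0.79 and -0.30 on the male arrays and -1.25 and -1.13 on the female arrays.

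**Figure D2:**
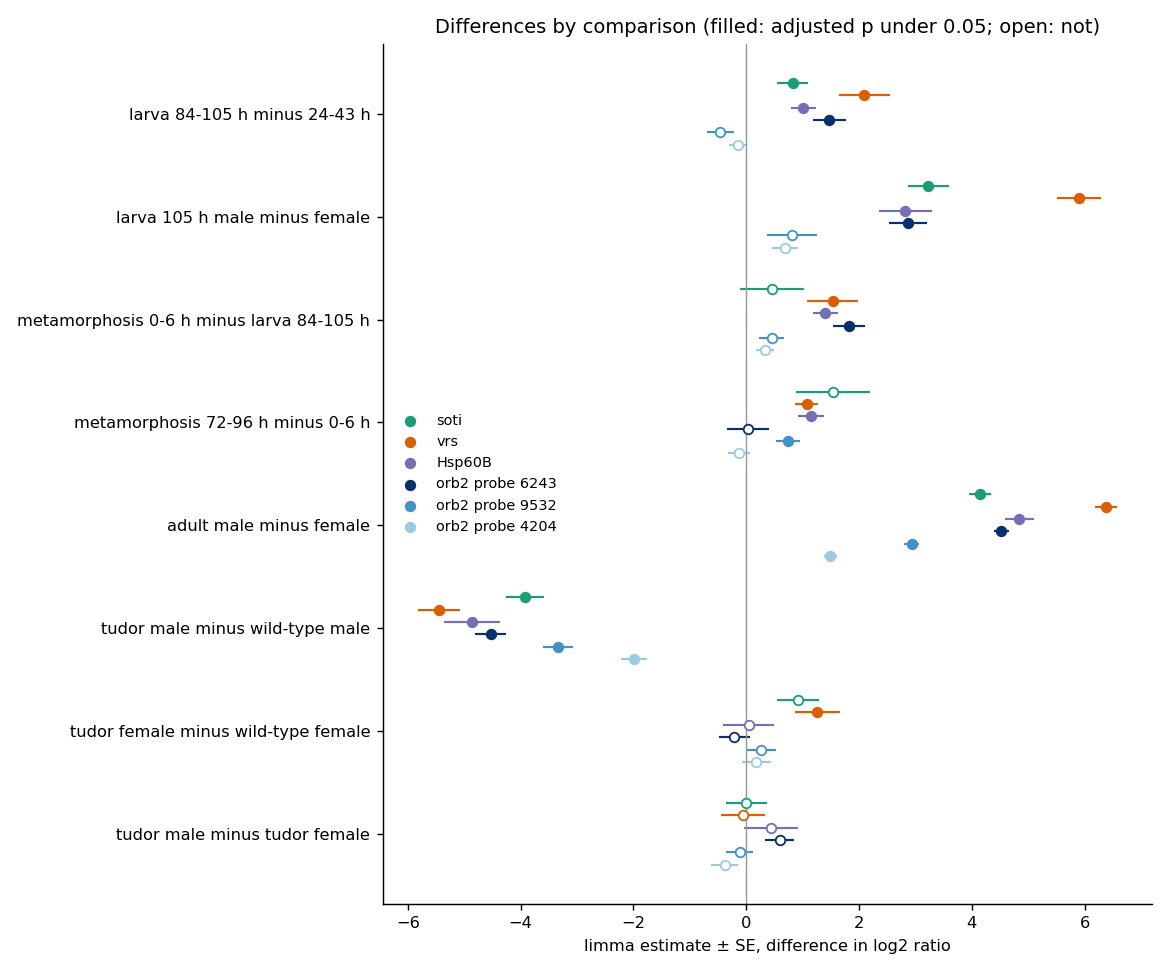
Differences in log2 ratio (horizontal axis, limma estimate with its SE) for 6 probes in 8 comparisons (vertical axis). Filled points passed the adjusted p of 0.05 and open points did not. The male excess in larvae and adults and the deficit of tudor males are the widest differences, and none of the 6 probes passed between the sexes of tudor flies.

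At puparium formation levels went further up. From unsexed larvae of 84 h or older to 0 to 6 h after the white prepupa, 3 of the 6 tested probes rose, where 16% of all tested probes did. orb2 probe 6243 ran from 1.05 to 1.57 (median 1.25) on the 7 prepupal arrays and from -1.74 to 0.31 (median -0.36) on the 6 larval ones, without overlap (1.82 ± 0.28, adjusted p = 0.000216). Hsp60B ran from 0.26 to 1.17 (median 0.94) against -1.40 to 0.24 (median -0.51), also without overlap (1.40 ± 0.22, adjusted p = 0.000346). vrs ran from 1.09 to 1.82 (median 1.40) against -2.30 to 1.24 (1.53 ± 0.45, adjusted p = 0.0165), and its prepupal arrays overlap only those of the oldest larvae. The oldest larvae already read 1.12 and 1.24, so the vrs difference includes the climb within larval life. A step for vrs from the oldest larvae alone was not tested. In slide set B alone the vrs difference was 0.91 (adjusted p = 0.183).

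soti turned on 1 array. It read -2.83 on the 2 h replicate 1 array and from 0.84 to 2.06 on the other 6 prepupal arrays. On that array vrs has no value, while Hsp60B (0.26) was at the low end of its prepupal values and the orb2 probes were within theirs. The soti difference was 0.45 ± 0.57 (adjusted p = 0.566) with the array and 0.97 (adjusted p = 0.0136) without it. orb2 probes 4204 (0.33 ± 0.16, adjusted p = 0.121) and 9532 (0.45 ± 0.22, adjusted p = 0.126) did not pass. Both passed without centring (the median over all tested probes then shifted by 0.37), at 0.70 (adjusted p = 0.0195) and 0.71 (adjusted p = 0.0279).

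Through metamorphosis the means of vrs went from 1.46 ± 0.30 (SD, n = 6) at 0-6 h to 1.78 ± 0.57 (n = 8) at 8-16 h, 2.45 ± 0.44 (n = 8) at 20-36 h, 2.56 ± 0.37 (n = 6) at 42-60 h and 2.53 ± 0.44 (n = 6) at 72-96 h. Those of Hsp60B went from 0.82 ± 0.34 (n = 7) to 1.07 ± 0.52 (n = 8), 1.63 ± 0.50 (n = 8), 1.86 ± 0.25 (n = 5) and 1.93 ± 0.51 (n = 6). For both genes the last 3 intervals do not differ beyond their spread. soti read 1.35 ± 0.72 (n = 7) at 8-16 h, 2.01 ± 0.42 (n = 8) at 20-36 h, 2.22 ± 0.29 (n = 6) at 42-60 h and 2.27 ± 0.38 (n = 5) at 72-96 h. The lowest soti values of that stretch were both at 16 h (0.59 on replicate 1 and 0.15 on replicate 2), beside 2.07 on the 12 h array with a value. The 16 h replicate 1 array is 1 of the 5 that resembled few others.

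Between 0-6 h and 72-96 h, 3 of the 6 tested probes rose: vrs by 1.07 ± 0.20 (adjusted p = 0.000782), Hsp60B by 1.14 ± 0.23 (adjusted p = 0.00129) and orb2 probe 9532 by 0.74 ± 0.21 (adjusted p = 0.0122). The share of all tested probes that rose was 22.7%. The call of probe 9532 was lost in slide set B alone (0.71, adjusted p = 0.0954) and without the replicate 1 arrays at 72 and 80 h (0.71, adjusted p = 0.0634). The late arrays of vrs (1.98 to 3.14) and Hsp60B (1.32 to 2.73) lie above all early ones. For soti the difference was 1.54 ± 0.65 (adjusted p = 0.0686), and it passed without the 2 h replicate 1 array (0.92, adjusted p = 0.00418), without the 6 h replicate 1 array (1.82, adjusted p = 0.0341) and in set B alone (0.93, adjusted p = 0.0328). Both sexes are mixed in these samples. Of 4 tested neuron markers all 4 rose over this interval (median 1.54), and the part of neurons in the orb2 readings was not tested. Of the 7 sperm tail genes 2 rose, Pglym87 (1.30 ± 0.25) and Tektin-A (0.75 ± 0.24).

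The 3 orb2 probes did not read alike in metamorphosis. Probe 6243 split by slide set: from 20 to 80 h it averaged 0.31 ± 0.39 (SD, n = 7) on set A arrays and 2.17 ± 0.78 (n = 9) on set B arrays, with no overlap between 0.97, the highest of set A, and 1.15, the lowest of set B. At 60 h the pair read 0.64 and 3.56. Its change from 0-6 h to 72-96 h was 0.03 ± 0.37 (adjusted p = 0.958) over both sets, -1.36 on set A alone (adjusted p = 0.00165) and 0.86 on set B alone. The other members did not split that far at 20 to 80 h: vrs averaged 2.82 ± 0.25 (n = 9) on set A and 2.28 ± 0.31 (n = 9) on set B, soti 2.27 ± 0.23 and 2.08 ± 0.45, and orb2 probe 9532 0.80 ± 0.32 and 1.06 ± 0.38. orb2 probe 4204 averaged 0.09 ± 0.38 on set A and 0.71 ± 0.26 on set B. In this stretch the 2 arrays of a time point correlated at a median of 0.408 across all probes. Probe 4204 also read -3.28 on the 12 h replicate 1 array, 1 of the 5 arrays that resembled few others, against -0.16 or more on the remaining arrays of 8-16 h.

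**Figure D3:**
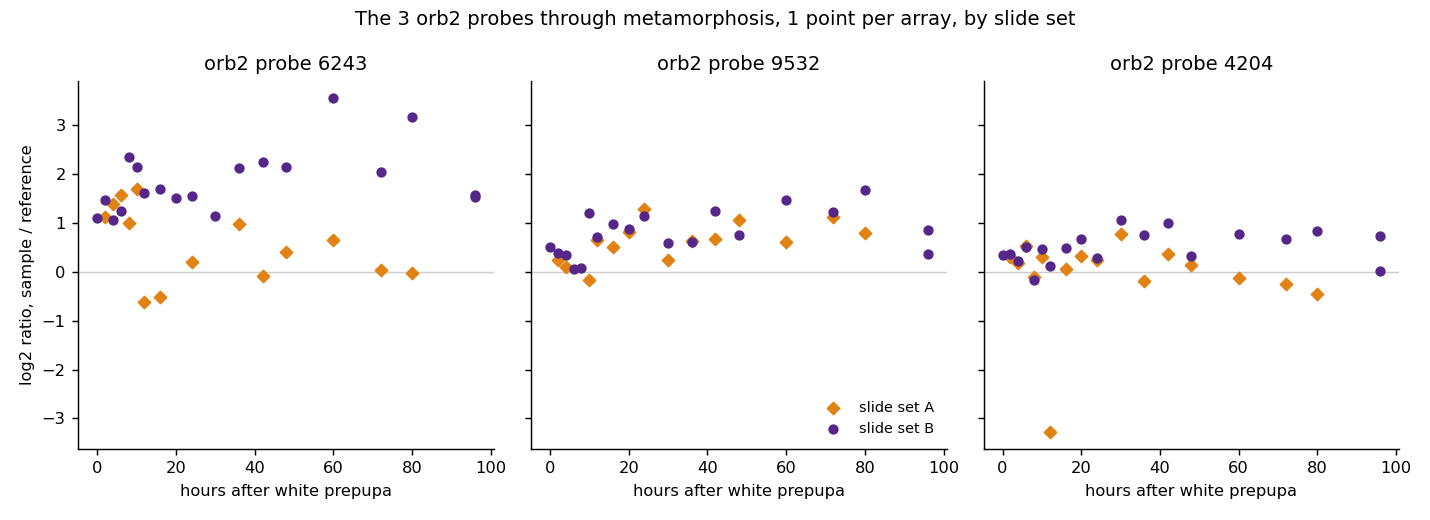
Log2 ratio (vertical axis) of the 3 orb2 probes against hours after the white prepupa (horizontal axis), 1 point per array, diamonds for slide set A and circles for slide set B. From 20 h on, the set A values of probe 6243 lie at 0.97 or lower and its set B values at 1.15 or higher, a gap that probe 9532 does not show.

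In wild-type adults all 6 tested probes were higher in males, where 39.9% of all tested probes were. In none of the 6 did any male array overlap any female array over 8 ages. The share of all tested probes without such overlap was not counted. vrs ran from 2.61 to 4.34 (median 3.35, n = 16) in males and from -4.16 to -1.74 (median -3.14, n = 16) in females, a difference of 6.38 ± 0.20, or 83.2-fold. Hsp60B ran from 1.87 to 4.56 (median 2.79, n = 16) against -4.41 to -0.90 (median -1.51, n = 15), or 4.84 ± 0.26. soti ran from 1.90 to 4.52 (median 2.87, n = 16) against -1.89 to -0.26 (median -1.11, n = 16), or 4.14 ± 0.20. The adjusted p-values of these 3 genes were 4.77e-22, 5.88e-16 and 1.89e-17.

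For orb2 the size of the male excess depended on the probe. Probe 6243 ran from 2.24 to 4.13 in males and from -1.85 to -1.01 in females (4.52 ± 0.13, or 22.9-fold). Probe 9532 ran from 1.07 to 2.77 (n = 13) against -1.79 to -0.51 (n = 15), with 2.93 ± 0.14. Probe 4204 ran from 0.67 to 1.90 against -0.88 to 0.10, with 1.49 ± 0.12, or 2.80-fold. For Hsp60B the sparse probe 2397, which carries the same clone accession as probe 2396, went the other way: it read -2.69, -1.90, -1.94 and -2.60 in males and -1.42, -1.67, -1.72 and -1.31 in females, all on set A arrays. In set A alone it was lower in males (-0.76, adjusted p = 0.0368), where probe 2396 was higher (6.07, adjusted p = 1.25e-08). The 2 Hsp60B probes therefore disagree in sign, and the Hsp60B results here are those of probe 2396.

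The paralogs did not follow the members. Hsp60A, the general mitochondrial chaperonin, was lower in males by 0.60 on the log2 scale (-0.60 ± 0.13, adjusted p = 0.000201), and orb likewise (-0.92 ± 0.12, adjusted p = 6.61e-08). All 7 sperm tail and axoneme genes were higher in males (median 3.82, against 0.07 over all tested probes), from 0.52 ± 0.10 for the dynein chain gene Dic61B to 5.63 ± 0.16 for Theg. r-cup was higher by 2.19 ± 0.15. Of the translational control genes eIF4E3 (3.98 ± 0.19) and Syp (3.03 ± 0.16) were higher and orb and Fmr1 (-0.48 ± 0.16) lower. Markers of other male tissue and of neurons also moved with sex: Acp36DE was higher by 8.07 ± 0.21, and 2 of 4 tested neuron markers were higher, slo by 1.31 ± 0.16 and nSyb by 0.89 ± 0.11. Of the 5 female germline genes 3 were lower in males, mtrm (-4.10 ± 0.28), swa (-2.63 ± 0.20) and Tl (-1.03 ± 0.11), and exu was higher (0.52 ± 0.20). The mean of the 5 neuron markers ran from -1.19 to -0.10 in males and from -2.43 to -0.64 in females. The part of these tissues in the sex differences of the members was not tested.

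The male excess was set against that of the oldest larvae in a fit to the 4 sexed larval and 32 wild-type adult arrays. Of the 6 probes 2 differed, where the excess was larger in adults for 9.14% of all tested probes: orb2 probe 6243 by 1.65 ± 0.39 (adjusted p = 0.00474) and orb2 probe 9532 by 2.13 ± 0.47 (adjusted p = 0.00392). The first call was lost without larval male replicate 2 (1.40, adjusted p = 0.0533), without the arrays whose comment disagrees with the title (1.66, adjusted p = 0.0614) and with quantile normalization (-0.21, adjusted p = 0.708), the second without larval female replicate 1 (1.32, adjusted p = 0.0674). Hsp60B missed the threshold at 2.00 ± 0.71 (adjusted p = 0.0554) and passed when any 1 of 10 arrays was left out (1.90 to 2.83 over those fits and the slide block). For vrs (0.48 ± 0.53, adjusted p = 0.569), soti (0.91 ± 0.48, adjusted p = 0.192) and orb2 probe 4204 (0.79 ± 0.35, adjusted p = 0.118) the difference between the stages did not pass. With quantile normalization that of vrs passed with the opposite sign (-2.03, adjusted p = 0.0035), the excess being smaller in adults. Male levels of soti were 2.49 and 1.68 in larvae and 1.90 to 4.52 in adults.

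**Figure D4:**
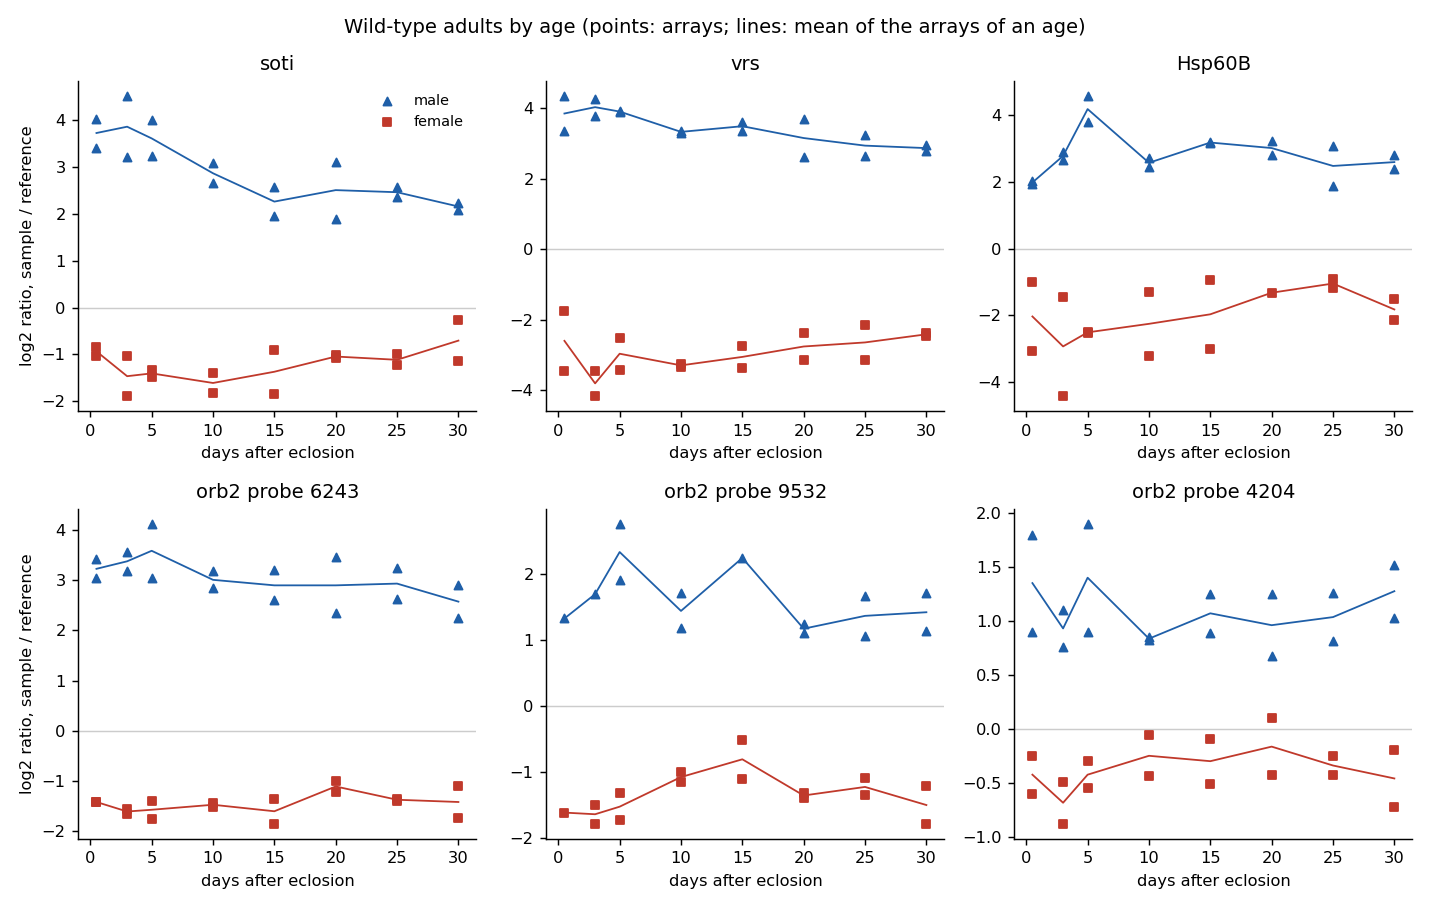
Log2 ratio (vertical axis) of the 6 tested probes in wild-type adults against days after eclosion (horizontal axis), triangles for males and squares for females, lines through the means of an age. Males stay above females at all 8 ages, and the male values of soti go from 3.42 and 4.04 at 0-24 h to 2.24 and 2.08 at 30 d.

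With age, 3 of the 6 tested probes fell in males, where 5.76% of all tested probes fell. soti averaged 3.74 ± 0.53 (SD, n = 6) from 0-24 h to 5 d, 2.57 ± 0.47 (n = 4) at 10 and 15 d and 2.38 ± 0.43 (n = 6) from 20 to 30 d. The 6 youngest arrays (3.21 to 4.52) lie above all 10 older ones, while the 2 older intervals overlap. The slope was -0.65 ± 0.11 per 10 days (adjusted p = 0.000312). vrs averaged 3.92 ± 0.36, 3.40 ± 0.14 and 2.98 ± 0.42 over the same intervals, with a slope of -0.44 ± 0.12 (adjusted p = 0.017), and orb2 probe 6243 averaged 3.40 ± 0.41, 2.96 ± 0.29 and 2.80 ± 0.49, with -0.33 ± 0.08 (adjusted p = 0.0114). In these 2 the neighbouring intervals overlap.

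The soti slope passed with each array left out and in each slide set alone, at -0.49 in set B (adjusted p = 0.00853) and -1.66 in set A (adjusted p = 0.0273). The vrs call was lost in set B (-0.43, adjusted p = 0.064) and in set A (-0.16, adjusted p = 0.865), without adult male 0-24 h replicate 2 (-0.41, adjusted p = 0.0616) and with quantile normalization (-0.22, adjusted p = 0.219). That of orb2 probe 6243 was lost in set B (-0.32, adjusted p = 0.0651) and in set A (-0.47, adjusted p = 0.323) and without adult male 30 d replicate 1 (-0.27, adjusted p = 0.058). It was also lost with quantile normalization (-0.14, adjusted p = 0.215), without centring (-0.28, adjusted p = 0.0851) and on log2 of days (adjusted p = 0.0612). Same-numbered arrays of the sexes at an age shared a slide for part of the ages, and with the number as a block 1194 probes passed in place of 744. Slide set A holds only males of up to 15 d.

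Hsp60B did not pass (-0.26 ± 0.19, adjusted p = 0.412). Its males read 1.93 and 2.02 at 0-24 h, 2.64 and 2.90 at 3 d and 3.78 and 4.56 at 5 d, and from 10 d on they ran from 1.87 to 3.22. The 5 d arrays lie above all others, and the lowest array was 25 d replicate 1. The orb2 probes 9532 (-0.19 ± 0.12) and 4204 (-0.09 ± 0.08) did not pass either. Of the 7 sperm tail genes 2 fell, hmw (-0.45 ± 0.12) and Cdlc2 (-0.41 ± 0.12), and of the translational control genes Syp did (-0.41 ± 0.12). Acp36DE had a slope of -0.07 ± 0.15 (adjusted p = 0.811).

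In females none of the 6 probes had a slope that passed, where 8.7% of all tested probes did in either direction. The estimates ran from -0.01 ± 0.08 for orb2 probe 4204 to 0.21 ± 0.19 for Hsp60B. The difference between the sexes' slopes was tested in the same fit. It passed for soti (-0.74 ± 0.15, adjusted p = 0.0201) and vrs (-0.63 ± 0.16, adjusted p = 0.0411), 2 of 6, where the male slope was lower for 0.816% of all tested probes. The vrs call was narrow: it was lost when any 1 of 15 arrays was left out (adjusted p from 0.0509 to 0.0755). It was also lost in 9 other alternatives, among them set B alone (-0.56, adjusted p = 0.247), set A alone (-0.35, adjusted p = 0.849) and log2 of days (-0.23, adjusted p = 0.19). The soti call was lost without centring (-0.72, adjusted p = 0.0609), in set B alone (-0.59, adjusted p = 0.143) and in set A alone (-1.24, adjusted p = 0.321).

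In males labelled tudor all 6 tested probes were lower than in wild-type males, where 12.2% of all tested probes were. vrs read -1.93 and -1.5 at 0-24 h and -1.88 and -0.55 at 5 d in tudor males, against 3.35, 4.34, 3.91 and 3.89 in wild-type males of those ages. The difference was -5.45 ± 0.37, or 43.6-fold lower (adjusted p = 3.75e-12). Hsp60B read -1.91, -1.38 and -1.32 (1 array had no value) against 1.93, 2.02, 3.78 and 4.56, or -4.86 ± 0.50 (adjusted p = 1.83e-08).

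soti read -0.61, 0.23, -0.22 and 0.04 in tudor males against 4.04, 3.42, 3.23 and 4.00, or -3.92 ± 0.34 (15.1-fold lower, adjusted p = 5.10e-10). Among orb2 probes, 6243 read -1.39, -0.66, -0.83 and -0.99 against 3.04, 3.42, 3.05 and 4.13 (-4.53 ± 0.27, adjusted p = 1.10e-13). Probe 9532 read -1.59 to -1.24 against 1.33 to 2.77 (-3.34 ± 0.26) and probe 4204 -0.69 to -0.15 against 0.90 to 1.90 (-1.99 ± 0.23). No tudor male array overlapped a wild-type male array on any of the 6 probes, and how many of all tested probes separated likewise was not counted. All tudor arrays lie in slide set B, while 4 of the 8 wild-type arrays of those ages lie in set A. In set B alone the differences were -5.58 for vrs, -3.85 for soti, -4.62 for Hsp60B and -4.74, -3.41 and -2.31 for the orb2 probes in the same order.

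**Figure D5:**
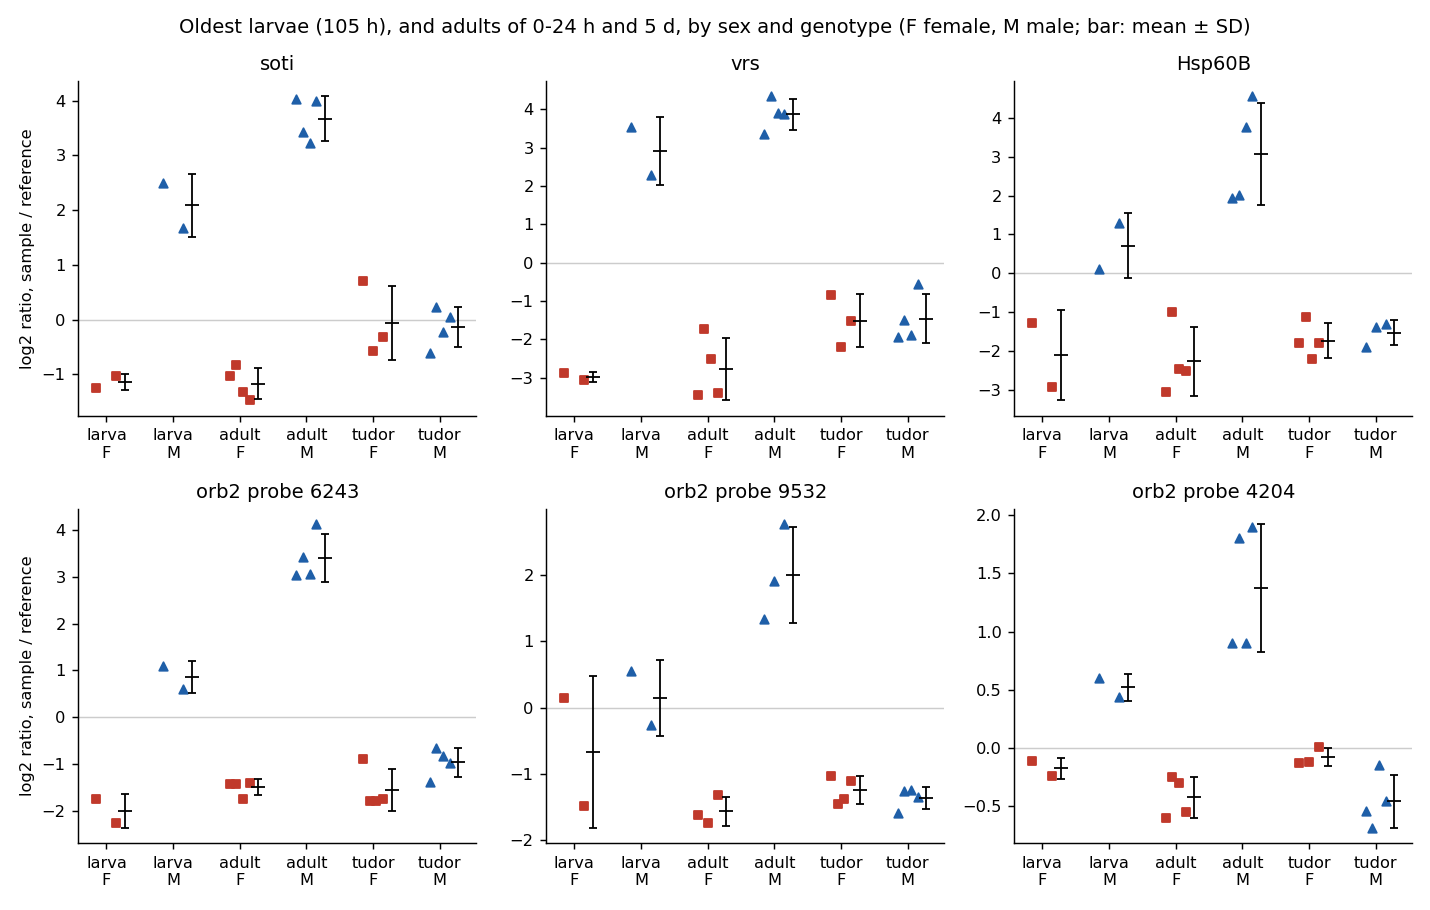
Log2 ratio (vertical axis) of the 6 tested probes on single arrays of the oldest larvae and of wild-type and tudor adults of 0-24 h and 5 d (horizontal axis), with mean and SD beside them, triangles for males and squares for females. The vertical scales differ between panels. Tudor males lie below wild-type males in all 6 panels.

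Within tudor flies no difference between the sexes passed on any of the 6 probes, where 10.9% of all tested probes passed in either direction. soti differed by 0.00 ± 0.36 (adjusted p = 0.999) and vrs by -0.05 ± 0.39 (adjusted p = 0.959). The largest estimate was that of orb2 probe 6243, 0.59 ± 0.25 (adjusted p = 0.152), whose female arrays read -0.90, -1.80, -1.79 and -1.75, and probe 4204 was at -0.38 ± 0.24 (adjusted p = 0.387) with arrays that do not overlap. Hsp60B was at 0.44 ± 0.48 (adjusted p = 0.658) and probe 9532 at -0.12 ± 0.24 (adjusted p = 0.830).

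Tudor females were compared with wild-type females. vrs was higher by 1.26 ± 0.40 (adjusted p = 0.0155), 1 of the 6 probes, where 24.2% of all tested probes were higher. It read -0.83, -2.21 and -1.51 in tudor females (1 array had no value) and -3.45, -1.74, -2.51 and -3.41 in wild-type ones, with overlap. The call was lost without tudor female 0-24 h replicate 1 (0.99, adjusted p = 0.137), tudor female 5 d replicate 2 (1.15, adjusted p = 0.0531) or wild-type female 5 d replicate 2 (0.98, adjusted p = 0.114). It was also lost with quantile normalization (0.91, adjusted p = 0.0689), in a fit to adults of 0-24 h and 5 d only (1.15, adjusted p = 0.0791), and at 0-24 h (1.66, adjusted p = 0.0568) and 5 d (0.99, adjusted p = 0.157) taken alone. Beside vrs, 3 of the 7 sperm tail genes were higher in tudor females (median 0.79, against 0.18 over all tested probes), namely Tektin-A (1.20 ± 0.35), asl (0.88 ± 0.34) and Theg (0.79 ± 0.31). Acp36DE (1.16 ± 0.46) was higher too, and so was 1 of 5 tested neuron markers, nSyb (0.99 ± 0.24), while the median of the 5 was -0.06. Hsp60A was lower (-1.20 ± 0.38). soti just missed the threshold at 0.92 ± 0.37 (adjusted p = 0.0508), with 0.70, -0.58 and -0.32 against -1.03, -0.84, -1.33 and -1.48, and passed in 6 alternatives, among them the replicate number as a block (1.04, adjusted p = 0.03) and leaving out tudor female 0-24 h replicate 2 (1.25, adjusted p = 0.014). The other 4 probes were between -0.21 ± 0.27 and 0.26 ± 0.26.

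The effect of the tudor label differed between the sexes on all 6 probes, where it was lower in males for 13.7% of all tested probes. The differences were -6.70 ± 0.52 for vrs, -4.90 ± 0.65 for Hsp60B, -4.84 ± 0.48 for soti, and -4.32 ± 0.36, -3.61 ± 0.37 and -2.18 ± 0.32 for orb2 probes 6243, 9532 and 4204 (largest adjusted p, 9.20e-06). Of the 7 sperm tail genes 5 fell in tudor males (median -3.63, against 0.14 over all tested probes), Theg (-4.83 ± 0.31) and Cdlc2 (-3.63 ± 0.29) among them, while Dic61B (-0.01 ± 0.21) and the centriole gene asl (0.00 ± 0.33) did not pass. r-cup (-1.94 ± 0.28) and eIF4E3 (-3.95 ± 0.37) fell too. The paralogs Hsp60A (-0.53 ± 0.28, adjusted p = 0.192) and orb (0.06 ± 0.27, adjusted p = 0.896) did not pass. Neither did the 2 other genes listed for spermatid mitochondria, Pink1 and Opa1 (median 0.24).

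Markers of other tissue were read beside this. Acp36DE did not pass in tudor males (0.20 ± 0.46, adjusted p = 0.800), where it read 3.28 to 5.62 against 3.19 to 4.29 in wild-type males, and it was higher in tudor males than in tudor females by 6.60 ± 0.43. None of 5 neuron markers passed in tudor males. ovo, the 1 measured gene of germ cells of both sexes, did not pass in tudor males (0.05) or tudor females (0.32). The 2 tudor male arrays with an ovo value were far apart (-3.02 and -0.15). Of 5 female germline genes 3 were lower in tudor females (median -3.74): swa (-3.95 ± 0.45), mtrm (-3.74 ± 0.67) and exu (-4.36 ± 0.38). exu, which is needed for RNA localisation in eggs and is also used in spermatogenesis, was lower in tudor males too (-6.03 ± 0.38). Of the same 5 genes in tudor males swa was also lower (-1.62 ± 0.45) and Tl, a maternal gene of embryonic patterning, was higher (0.66 ± 0.21), and the median of the 5 was -0.41. The mean of these 5 genes ran from -1.88 to -0.53 in tudor females and 0.34 to 1.48 in wild-type females of those ages, and from -1.63 to -1.21 and -0.68 to 0.43 in the males.

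Before larval life the levels of soti, vrs, Hsp60B and orb2 probe 6243 were low and varied without a common course. Over all embryo arrays vrs averaged -2.90 ± 0.94 (SD, n = 59), Hsp60B -1.93 ± 0.76 (n = 60), soti -1.82 ± 0.66 (n = 58) and orb2 probe 6243 -1.5 ± 0.73 (n = 59). The vrs values above 0, 0.33 and 0.60, are those of the 2-3 h and 4-5 h replicate 1 arrays, both among the 5 that resembled few others. Hsp60B was above 0 once, at 0.55 on the 7-8 h replicate 2 array, and orb2 probe 6243 once, at 0.78 on the 4-5 h replicate 1 array. Between 0-2 h and 20-24 h, 3 of 6 probes rose, against 45% of all tested probes. orb2 probe 9532 rose from -1.92 to -0.99 (median -1.52) to -0.67 to 0.78 (median 0.15), without overlap (1.74 ± 0.16, adjusted p = 4.01e-08). The rises of soti (0.77 ± 0.14, adjusted p = 0.000101) and Hsp60B (0.70 ± 0.22, adjusted p = 0.0073) had overlapping arrays and depended on the scaling: with quantile normalization they were -0.04 and -0.30, and without centring 0.33 (adjusted p = 0.0565) and 0.26 (adjusted p = 0.243). The Hsp60B call was also lost in set B alone (0.40, adjusted p = 0.156) and without the slide set term (0.47, adjusted p = 0.277). The other 2 orb2 probes did not pass, with 0.29 ± 0.14 for probe 6243 and -0.15 ± 0.12 for probe 4204, nor did vrs (0.34 ± 0.28, adjusted p = 0.266). These too depended on the scaling. With quantile normalization vrs (-0.93, adjusted p = 0.00238) and probe 6243 (-0.33, adjusted p = 0.0426) passed as lower at 20-24 h. Without centring probe 4204 passed as lower (-0.59, adjusted p = 0.00105). Of 5 neuron markers 4 rose over this interval (median 1.70), and their part in the course of orb2 probe 9532 was not tested.

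Ordered by level, vrs was lowest in female larvae (-2.98 ± 0.12, n = 2), adult females (-2.94 ± 0.63, n = 16) and embryos (-2.90 ± 0.94), which do not differ beyond their spread. Larvae of 24 to 72 h (-2.02 ± 0.41, n = 13), tudor females (-1.51 ± 0.69, n = 3) and tudor males (-1.46 ± 0.64, n = 4) came next and overlap. Then came metamorphosis, male larvae (2.91 ± 0.88, n = 2) and adult males (3.44 ± 0.53, n = 16), which all overlap. Metamorphosis reached 3.16, above the lower male larval array (2.29) and the lowest adult male array (2.61). soti was lowest in embryos, adult females (-1.21 ± 0.42, n = 16) and female larvae (-1.14 ± 0.15, n = 2), followed by larvae of 24 to 72 h (-0.50 ± 0.38, n = 14), tudor males (-0.14 ± 0.36, n = 4) and tudor females (-0.07 ± 0.68, n = 3). Male larvae (2.09 ± 0.57, n = 2) stood within the range of metamorphosis, and adult males (2.93 ± 0.79, n = 16) were highest, with overlap.

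Hsp60B was at -2.12 ± 1.17 (n = 2) in female larvae, -2.03 ± 1.05 (n = 15) in adult females, -1.74 ± 0.45 (n = 4) in tudor females, -1.54 ± 0.32 (n = 3) in tudor males and -1.38 ± 0.49 (n = 14) in larvae of 24 to 72 h, all overlapping. It was at 0.70 ± 0.84 (n = 2) in male larvae and highest, at 2.84 ± 0.69 (n = 16), in adult males, without overlap between these. orb2 probe 6243 was lowest in female larvae (-2.02 ± 0.35, n = 2) and larvae of 24 to 72 h (-1.99 ± 0.30, n = 14), and highest in adult males (3.06 ± 0.48, n = 16), above male larvae (0.85 ± 0.35, n = 2) without overlap. orb2 probe 9532 was also highest in adult males (1.60 ± 0.50, n = 13) but was lower in adult females (-1.33 ± 0.34, n = 15) than in larvae of 24 to 72 h (0.12 ± 0.24, n = 12). Levels of different probes are not compared, since a ratio depends on the reference.

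Across the 80 group means the members correlated with each other at 0.942 for soti and vrs, 0.941 for vrs and Hsp60B and 0.938 for Hsp60B and orb2 probe 6243. orb2 probe 4204 correlated with the others at 0.496 to 0.660. These are Pearson correlations given as a description, over points that share the reference RNA and the contrast of the sexes. The genes with the most similar course, of those with a single-gene probe, were CG12699 (0.983) and CG15208 (0.979) for vrs, CG43755 (0.977) and CG17377 (0.965) for Hsp60B, CG18266 (0.953), CG18568 (0.947) and Scsalpha2 (0.947) for soti, and CG9284 (0.949) and Pgm2b (0.947) for orb2 probe 6243. CG8813 was among the 5 most similar genes of soti (0.946), vrs (0.976) and Hsp60B (0.957). For orb2 probe 4204 the highest was CG30350 (0.679), and for probe 9532 CG9106 (0.909).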

How the data were processed

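RNA was measured on 159 two-colour cDNA arrays. The deposited table holds log2 ratios, a unit read from its values. Per the labels' protocols the RNA was poly(A)+ and slides were read on a GenePix scanner at 635 and 532 nm. How spots were filtered, backgrounds corrected and ratios normalized is not given in the sources used here. The original scale and centring stay unknown. Precision is limited by the number of arrays. Here the 252 values above 16 were set to missing (0 of them on member probes) and each array was centred on its median. Array medians had been between -0.78 and 0.77, and the lowest correlation between arrays was -0.26.

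Groups came from titles. limma 3.58.1 (R 4.3.3, data.table, version 1.17.8) fitted 14 comparisons on probes with a value on at least 80% of a fit's arrays, with slide set as a term. Windows of time were fitted on their own arrays, sexed larvae on all 24 larval arrays, sexes and ages on the 32 wild-type adult arrays (0-24 h set at 0.5 d) and tudor flies on all 40 adult arrays at matched ages. Code was tested on simulated data. Summaries used Python 3.11.15 (pandas 2.3.3, numpy 2.4.6). Same-numbered larval males and females share slides (correlation of deviations 0.71). For adults these correlations ran from -0.38 to 0.55, so the numbers were not taken as pairs. The genes named are the members, the 5 most similar genes of each, and members of the lists. Members and lists were chosen with earlier results of these data known. The lists of sperm chromatin and of eggshell and yolk had no single-gene probe, that of spermatocyte transcription held mia (tested in no comparison) and that of germ cells of both sexes ovo (0.40 ± 0.28 between adult sexes). Besides Hsp60B, the spermatid mitochondria list held Pink1 (0.58 ± 0.12 between adult sexes) and Opa1 (0.23 ± 0.09), both higher in males, and besides soti and Hsp60B the individualisation list held poe (0.12 ± 0.51 between larval sexes, not passing). Alternatives were other scalings, filters, blocks, slide sets and age ranges, and each array left out. No sequence or coordinate is given.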

Additional observations from a re-analysis of the deposited data

Results flagged for a closer look

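Some arrays stood apart from the rest of their group, by a gap to the nearest value that was large against the group's range. Of 44 groups of values checked 4 were so marked, where chance gives about 1 in 20. soti read -2.83 on metamorphosis 2 h replicate 1, against 0.84 to 2.06 on the 6 others of 0-6 h. On embryo 22-23 h replicate 2, orb2 probe 4204 (0.72) and orb2 probe 6243 (-0.31) were both above the 7 other arrays of 20-24 h, and soti (-0.21) was highest there too. orb2 probe 6243 read -0.90 on tudor female 0-24 h replicate 1, against -1.80 to -1.75 on the 3 others, and soti (0.70) and vrs (-0.83) were highest of the tudor females on that array.

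Several effects differed between groups by a test of the difference itself. The slope with age was lower in males than in females for soti (-0.74 per 10 days) and vrs (-0.63 per 10 days). Both calls were lost in each slide set alone, and that of vrs was kept in 17 of 32 fits with an array left out. The male excess was larger in adults than in the oldest larvae for orb2 probe 6243 (1.65) and orb2 probe 9532 (2.13), and each of these calls was lost in some alternative fits, as given above. The effect of the tudor label was lower in males than in females for vrs (-6.70), Hsp60B (-4.90), soti (-4.84), orb2 probe 6243 (-4.32), orb2 probe 9532 (-3.61) and orb2 probe 4204 (-2.18).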

How the results depend on the processing

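Of 84 results on single probes 43 passed. Over 1280 alternative fits of these, 1210 kept direction and call, 67 lost the call and 3 reversed. Of 1304 fits of the others 38 gained a call in the direction of the main estimate. Fits of the others that passed with the opposite sign are outside that count and carry an adjusted p below. The adult sex difference and the tudor effects in males and between the sexes kept direction and call on all 6 probes in all alternatives that could be fitted. Quantile normalization turned the embryonic differences of soti (-0.04), vrs (-0.93, adjusted p = 0.00238), orb2 probe 6243 (-0.33, adjusted p = 0.0426) and Hsp60B (-0.30). It also turned the adult minus larval sex difference of vrs (-2.03, adjusted p = 0.0035) and orb2 probe 6243 (-0.21). Averaging the orb2 probes turned the embryonic difference of probe 4204 to 0.62 (adjusted p = 3.41e-05). Slide set A alone turned the late metamorphosis difference of probe 6243 to -1.36 (adjusted p = 0.00165). The causes were not tested.

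Counts of all probes that passed moved by more than 1.5 times as follows. With values on every array required, fewer probes were tested and 1.6e2 (156 higher and 3 lower) passed between larval sexes (240 otherwise), 1895 in late metamorphosis (2863), 3102 between adult sexes (5073), 995 in tudor males (1589), 1617 in tudor females (2645) and 937 for the tudor effect between sexes (1510). With fewer arrays, older against young larvae gave 70 in set A alone (2063), larval sexes 146 in set B and 90 in the 4 sexed arrays, and prepupae 600 in set B (2241). The male slope gave 404 in set B, 111 in set A and 361 without 0-24 h flies (744), the female slope 280, 6 and 88 (597), and the slope difference 3, 0 and 19 (94; the 0 in limma leaves 858 at an unadjusted p under 0.05). Tudor flies of 0-24 h alone gave 897 in males, 1229 in females, 522 for the effect between sexes and 96 between tudor sexes (763), and those of 5 d alone 915 in males and 424 between tudor sexes.

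The replicate block gave 1194 for the male slope, 1511 for the female slope and 38 for the slope difference; it ended the embryonic Hsp60B call and the vrs slope difference, gave soti a call in tudor females, and changed no other member's call. The slide as a random block gave 447 between larval sexes and 1699 for the adult minus larval difference (1062), which gave 432 without the arrays of disagreeing comments. Without the slide set term the female slope gave 1214 and the slope difference 15. On log2 of days the slope difference gave 160. Without centring the female slope gave 325, the slope difference 9 and tudor sexes 507, and with quantile normalization the last 2 gave 197 and 457.

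With each array left out in turn, counts ran from 450 to 792 for the male slope, 161 to 832 for the female slope, 24 to 122 for the slope difference, 697 to 1133 for the adult minus larval difference and 454 to 767 between tudor sexes. The lowest came without adult male 0-24 h replicate 2, adult female 0-24 h replicate 2, adult female 0-24 h replicate 1, larval female replicate 2 and tudor female 0-24 h replicate 1, in that order.

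Without centring the median over all tested probes moved by -0.44 in embryos, -0.15 in older larvae, 0.37 in prepupae, -0.11 in late metamorphosis, -0.23 between adult sexes, -0.29 for the adult minus larval difference, -0.16 in tudor females and 0.16 for the tudor effect between sexes. The share of passing probes that were higher then went from 54 to 40.9% in embryos and between adult sexes, 44.6 to 25.9% in older larvae, 47.5 to 77.6% in prepupae, 46.9 to 70.7% for the male slope, 40.4 to 66.7% for the slope difference, 58.4 to 32.6% for the adult minus larval difference and 64.1 to 51.0% in tudor females. With quantile normalization it was 58.7% for the male slope, 53.8% for the slope difference, 44.2% for the adult minus larval difference, 49.0% in tudor females, 46.8% for the tudor effect between sexes (36.4% otherwise) and 42.2% between tudor sexes (25.4%), with medians moved by -0.15 in embryos, -0.13 between adult sexes and for the adult minus larval difference, -0.18 in tudor females and 0.21 for the tudor effect between sexes.

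Not run for want of arrays were set A alone for larval sexes, the adult minus larval difference and tudor flies, and the fit without arrays of disagreeing comments where a comparison held none. The number of arrays, 2 per group, limits what can be detected.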
